A study of Sus scrofa with 18 samples.

Results

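The mitosis genes are 42 genes whose products carry a cell through mitosis, and all 42 had a row in the deposited count table of 27339 genes. They were taken by symbol from a fixed list of mitotic kinases and cyclins, checkpoint proteins, kinetochore proteins, motors and cytokinesis proteins, together with the proliferation markers MKI67 and TOP2A. No measured value entered that rule, although the list was drawn up with earlier results of these data known. The 42 genes were described in 18 RNA-seq libraries of pig tissue, in tumours of a double knock-in pig and in normal tissue of wild-type pigs.

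Mitosis is driven by a kinase, CDK1, that is active only when bound to cyclin A or cyclin B. The spindle then attaches to each chromosome at its kinetochore, and a checkpoint holds the cell until every kinetochore is attached. A ubiquitin ligase then marks for destruction the cyclins and securin, which restrains the cleavage of cohesin, the complex that holds sister chromatids together. Most of the genes for this machinery are transcribed in the phase before mitosis and their mRNA is degraded afterwards, so in tissue their mRNA comes mainly from dividing cells. In squamous epithelium, the lining of skin and mouth, dividing cells are normally found in the basal and lowest suprabasal layers. Roles named below are those known from human cells.

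DIK pigs carry elements of the doxycycline-controlled Tet-on system and of the phiC31 integrase. The labels name these elements but no promoter or cell type that drives them. A group of 3 DIK founders and age-matched wild-type (WT) pigs received doxycycline at 7 months of age. Tumours grew in the nose, mouth and scrotum of 1 founder, and 8 months after induction that founder and WT pigs were killed. The 6 groups hold 3 libraries each, as labelled: DIK nose tumour, DIK mouth tumour, DIK scrotum tumour, and normal WT nose, WT mouth and WT scrotum. All 9 DIK libraries thus come from 1 animal, and the labels do not say how many WT animals were sampled. P-values therefore measure the spread between these libraries, which may be technical, and not the spread between animals. Both genotypes received doxycycline, so no group here lacks it.

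Library totals ran from 2024959 to 4146150 counts in DIK and from 418665 to 5041470 counts in WT. The lowest total was that of WT nose replicate 1, in which 3 counts correspond to 5.76 CPM, against 0.483 to 1.88 CPM in the other 17 libraries. CPM is the usual depth-scaled count, here relative to the library total after scaling by the trimmed mean of M-values (TMM). A level of 0 in WT nose replicate 1 therefore says little about a gene whose level elsewhere is a few CPM. The posterior HOX genes mark the hind body and are normally silent in the head. They summed to 16.9 ± 4.61 CPM in DIK mouth and 60 ± 15.5 CPM in WT mouth (SD, n = 3), against 2.92 ± 1.99 CPM in DIK scrotum and 4.71 ± 1.63 CPM in WT scrotum. The labels mouth and scrotum thus go against these genes in both genotypes, and the site names below are those of the labels. Skeletal muscle markers took at most 0.0985% of counts in DIK libraries, 11.9% to 14.4% in WT nose, 0.533% to 1.19% in WT mouth and 14.1% to 28.6% in WT scrotum. WT scrotum replicate 2 stands apart from its group with 13800 CPM of basal keratinocyte markers, where replicates 1 and 3 had 1220 and 221 CPM. Over all genes, DIK nose replicate 2 also lies apart from replicates 1 and 3, with a chi-square of counts per degree of freedom of 56.9 and 68.8, against 11 between those 2. It had 13.5 CPM of skeletal muscle and 818 CPM of fibroblast markers, against 737 and 948 CPM and 2190 and 2080 CPM in replicates 1 and 3. WT mouth replicate 1 lies apart in the same way (90.3 and 78.9, against 10.7 between replicates 2 and 3).

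All 42 mitosis genes were counted in each of the 9 DIK libraries, and nearly all of them were higher in tumour than in normal tissue at every label. Over the 42 genes the tumours held 13164 counts and the WT libraries 1661. The summed level was 336, 441 and 324 CPM in DIK nose, against 21.1, 41.3 and 27.8 CPM in WT nose. At the mouth label the sums were 437, 322 and 477 CPM in DIK and 38.6, 35.4 and 24.1 CPM in WT. In the scrotum libraries they were 535, 606 and 532 CPM in DIK and 55.8, 120 and 37.4 CPM in WT. The ranges of tumour and normal sums did not overlap at any label. The ratio of the means was 12.2 at the nose label, 12.6 at the mouth label and 7.84 at the scrotum label. At the scrotum label it was 12 without WT scrotum replicate 2 and 6.34 without WT scrotum replicate 3. It was 11 at the nose label without DIK nose replicate 2 and 13.8 at the mouth label without WT mouth replicate 1. NUSAP1 alone gave 13.9, 6.25 and 10.5 CPM of the mean WT sums of 30, 32.7 and 71.1 CPM at the nose, mouth and scrotum labels. In DIK libraries NUSAP1 gave 28.8, 25.5 and 33.6 CPM of mean sums of 367, 412 and 558 CPM. In bulk tissue, more dividing cells and more mRNA per cell cannot be told apart.

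Without a filter on low counts, edgeR called 41 of 42 genes higher in DIK than in WT at the nose label, where 11% of the 23208 genes with a count were called higher. It called 41 of 42 at the mouth label against a background of 11.6%, and 38 of 42 at the scrotum label against 9.73%. No member was lower at any label, and all 42 estimates were positive. The genes not called were ECT2 at the nose label, SPC25 at the mouth label, and TTK, KIF4A, ECT2 and ASPM at the scrotum label. The median log2 difference over the 42 genes was 4.66 at the nose label, 3.76 at the mouth label and 2.84 at the scrotum label, against medians of 0, -0.15 and -0.14 over all genes in that fit. At the nose label 10 of the 42 had 0 counts over the 3 WT libraries. With these set to their lower bound (against 3 counts over the group), the nose median was 4.16.

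With the default filter, which 12895 genes passed, 41 of the 42 could be tested and FOXM1 could not. Of these 41, 38 reached the filter's minimum of 2.66 CPM only because of their level in DIK libraries, so the counts that follow describe the genes that passed and are not support by themselves. The calls were 40 of 41 higher at the nose label, 41 of 41 at the mouth label and 38 of 41 at the scrotum label, where 21.9%, 22.7% and 19.4% of all tested genes were called higher. Without DIK nose replicate 2 the nose count was 39 of 42, and without WT mouth replicate 1 the mouth count was 41 of 42, since more genes then passed the filter. A set of 38 genes was called higher at all 3 labels, as were 9% of the tested genes. Log2 differences below are DIK minus WT estimates ± SE from this fit, by the edgeR quasi-likelihood test with Benjamini-Hochberg adjustment over the 12895 genes. The SE was derived as the absolute estimate divided by the square root of the test's F statistic. It is approximate where a group has few or no counts. All 3 DIK libraries lay above all 3 WT libraries for 41 of 42 genes at the nose label, 42 at the mouth label and 39 at the scrotum label, a pattern held by 29.2%, 29% and 24% of tested genes. For 36 of the 42, the lowest of the 9 DIK libraries lay above the highest of the 9 WT libraries. The same held for 8.5% of the tested genes. The other 6 members were TTK, KIF4A, PRC1, ECT2, HMMR and ASPM.

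**Figure D1:**
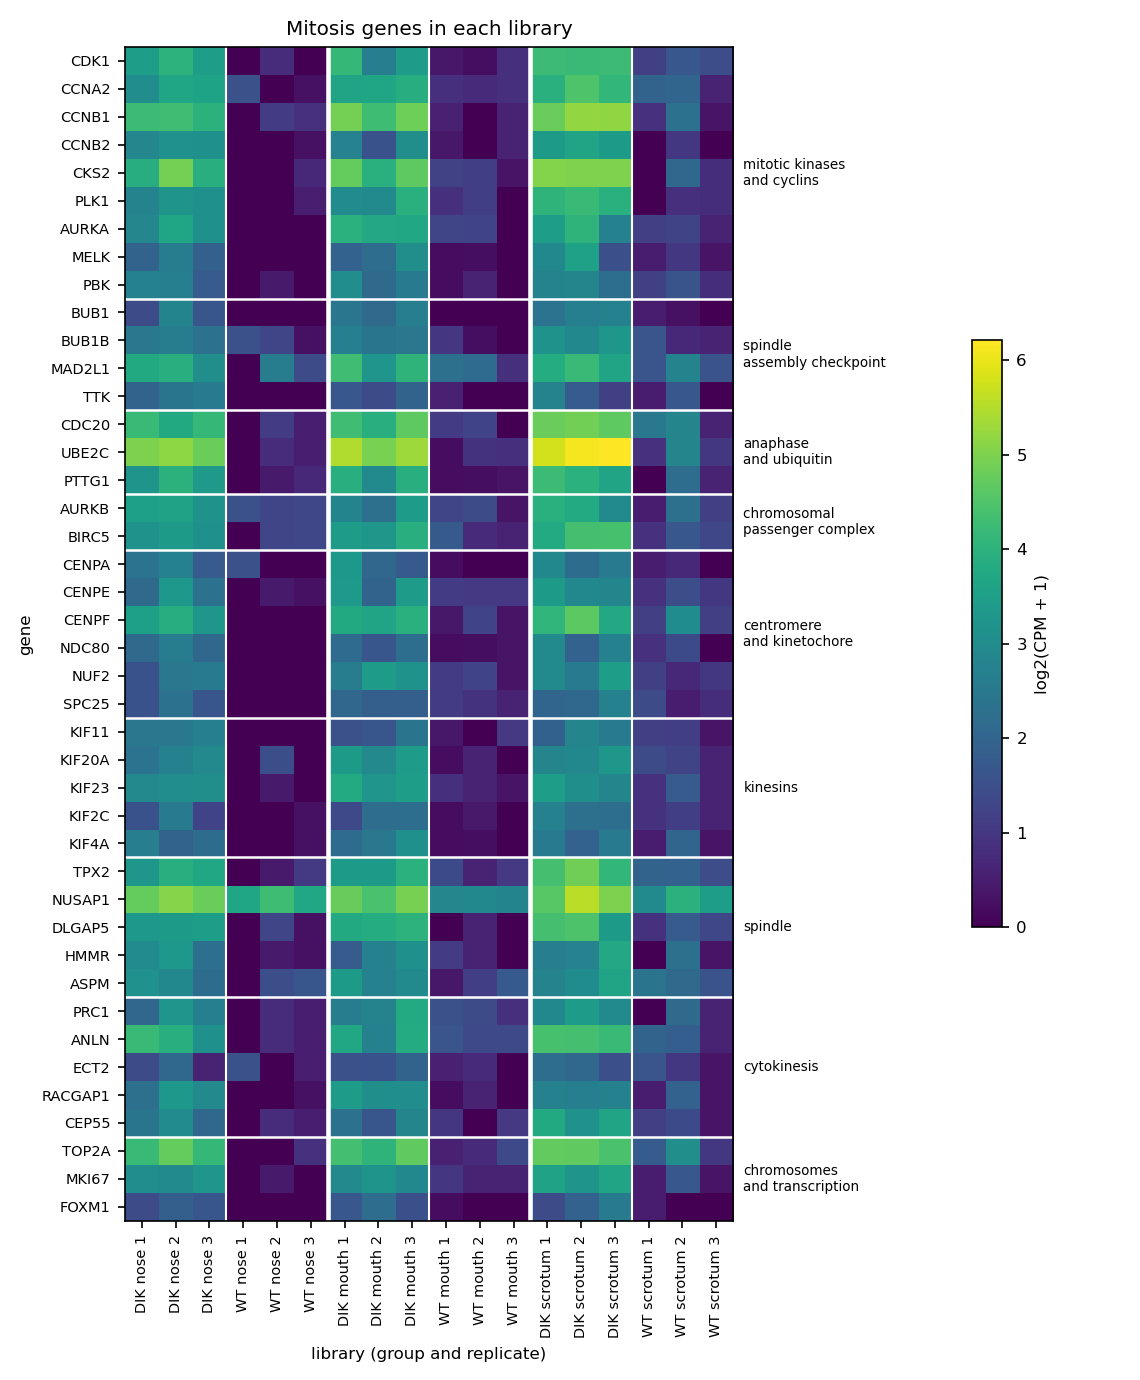
Level of the 42 mitosis genes in each of the 18 libraries, as log2(CPM + 1) in colour, with genes in rows by role and libraries in columns by group (DIK left of WT at each label). The DIK columns are brighter than the WT columns beside them for nearly every gene, and the row of NUSAP1 is bright in both genotypes.

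The mitotic kinases and cyclins were 9 of the 42 genes, and all 9 rose at all 3 labels. Their median log2 difference was 5.33 at the nose label, 4.18 at the mouth label and 3.38 at the scrotum label. CDK1, the kinase that starts mitosis, differed by 5.33 ± 0.72, 4.62 ± 0.57 and 3.27 ± 0.48 at the nose, mouth and scrotum labels. The nose value became 8.45 without WT nose replicate 2, the only WT nose library in which CDK1 was counted. CCNB1, the main cyclin of mitotic entry, differed by 4.26 ± 0.67, 6.15 ± 0.65 and 4.06 ± 0.54 at the same labels. CCNB2, a second B-type cyclin, had 83, 54 and 81 counts in DIK nose, mouth and scrotum, against 1, 4 and 5 counts in WT. Its scrotum difference of 4.47 ± 0.73 was 8.18 without WT scrotum replicate 2, which held all 5 WT scrotum counts. It was 3.89 without WT scrotum replicate 3. CKS2, a small subunit bound to CDKs, differed by 5.57 ± 0.82, 4.40 ± 0.61 and 4.31 ± 0.60. Its nose value was 9.09 without WT nose replicate 3, which held all 3 WT nose counts. PLK1, a kinase of centrosomes and spindle, differed by 4.70 ± 0.81, 3.61 ± 0.56 and 4.63 ± 0.61. Its nose value was 7.71 without WT nose replicate 3, which held the 2 WT nose counts.

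CCNA2 is the cyclin that acts in DNA replication and early mitosis. In nose libraries, CCNA2 had 7.28, 11.6 and 11.2 CPM in DIK, against 1.92, 0 and 0.214 CPM in WT. In mouth libraries, CCNA2 had 11.4, 11.7 and 13.6 CPM in DIK, against 0.805, 0.697 and 0.787 CPM in WT. In scrotum libraries, CCNA2 had 14.5, 21.8 and 16.3 CPM in DIK, against 2.94, 3.06 and 0.502 CPM in WT. Every DIK value lay above every WT value, and the log2 differences were 5.09 ± 0.72, 3.94 ± 0.50 and 3.02 ± 0.46. AURKA, a kinase of the spindle poles, was at 0 counts in all 3 WT nose libraries. In nose libraries, AURKA had 6.31, 11.6 and 7.64 CPM in DIK, against 0 counts in all 3 libraries of WT, so the tumours were at least 22.3-fold higher. In mouth libraries, AURKA had 14.6, 12.4 and 12 CPM in DIK, against 1.45, 1.39 and 0 CPM in WT. In scrotum libraries, AURKA had 10.1, 15.4 and 5.63 CPM in DIK, against 1.26, 1.43 and 0.502 CPM in WT. Its groups did not overlap, with differences of 3.60 ± 0.55 at the mouth label and 3.28 ± 0.59 at the scrotum label.

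MELK, a kinase of dividing and embryonic cells, and PBK, a kinase active in mitosis, both rose at every label. In nose libraries, MELK had 2.91, 5.12 and 2.73 CPM in DIK, against 0 counts in all 3 libraries of WT, which is at least 9.44-fold higher. In mouth libraries, MELK had 2.85, 3.64 and 7.46 CPM in DIK, against 0.161, 0.174 and 0 CPM in WT, a ratio of 37.2 (exact 95% counting interval 9.78 to 315). In scrotum libraries, MELK had 6.43, 10.7 and 1.88 CPM in DIK, against 0.42, 1.02 and 0.251 CPM in WT. DIK scrotum replicate 3 was the lowest tumour library for MELK and still lay above the WT range, and the scrotum difference was 3.38 ± 0.70. In nose libraries, PBK had 5.58, 5.38 and 2.46 CPM in DIK, against 0, 0.365 and 0 CPM in WT. In mouth libraries, PBK had 7.28, 3.4 and 4.8 CPM in DIK, against 0.161, 0.523 and 0 CPM in WT. In scrotum libraries, PBK had 5.87, 6.08 and 3.75 CPM in DIK, against 1.26, 2.04 and 0.752 CPM in WT. The tumour and normal libraries stood closest at the scrotum label, where PBK differed by 1.92 ± 0.57, a call that was lost without WT scrotum replicate 3 (adjusted p = 0.0513). Its mouth difference was 4.18 ± 0.68.

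The spindle assembly checkpoint was represented by 4 genes, of which 4 rose at the nose and mouth labels and 3 at the scrotum label. BUB1 is a checkpoint kinase of the kinetochore. In nose libraries, BUB1 had 1.7, 5.92 and 2.18 CPM in DIK, against 0 counts in all 3 libraries of WT, at least 8.52-fold higher. In mouth libraries, BUB1 had 4.43, 3.4 and 5.33 CPM in DIK, against 0 counts in all 3 libraries of WT, at least 22.9-fold higher. In scrotum libraries, BUB1 had 4.19, 5.36 and 5.63 CPM in DIK, against 0.42, 0.204 and 0 CPM in WT, a ratio of 27.6 (exact 95% counting interval 7.14 to 236). BUB1 was thus detected in 2 of the 9 WT libraries, both labelled scrotum, and in all 9 tumour libraries. MAD2L1, which inhibits CDC20 until chromosomes are attached, was one of 3 members that would pass the filter on WT libraries alone. In nose libraries, MAD2L1 had 12.6, 14 and 7.37 CPM in DIK, against 0, 5.11 and 1.71 CPM in WT. In mouth libraries, MAD2L1 had 18.7, 8.5 and 15.5 CPM in DIK, against 3.86, 3.49 and 0.787 CPM in WT. In scrotum libraries, MAD2L1 had 13.4, 17.5 and 11.3 CPM in DIK, against 2.1, 5.91 and 2.01 CPM in WT. The DIK values lay above the WT values at each label, and the differences were 1.99 ± 0.60, 2.31 ± 0.53 and 2.00 ± 0.54. The nose call was lost without WT nose replicate 3 (1.56, adjusted p = 0.101).

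TTK, the kinase that starts checkpoint signalling, rose at the nose and mouth labels and missed the threshold at the scrotum label. In nose libraries, TTK had 2.91, 4.31 and 4.91 CPM in DIK, against 0 counts in all 3 libraries of WT, at least 10.6-fold higher. In mouth libraries, TTK had 2.21, 1.7 and 2.93 CPM in DIK, against 0.483, 0 and 0 CPM in WT, a ratio of 11.9 (exact 95% counting interval 3.63 to 61.6). In scrotum libraries, TTK had 5.87, 2.5 and 1.25 CPM in DIK, against 0.42, 2.24 and 0 CPM in WT. WT scrotum replicate 2 lay above DIK scrotum replicate 3, so the groups overlapped, and the difference was 1.76 ± 0.84 (adjusted p = 0.102). It was 4.16 and passed the test (adjusted p = 0.0064) without WT scrotum replicate 2, and 0.97 without DIK scrotum replicate 1. The mouth call was lost without WT mouth replicate 2 (adjusted p = 0.0524), and the mouth estimate of 3.39 ± 1.03 became 5.999 without WT mouth replicate 1, which held all 3 WT counts. BUB1B, which works with MAD2L1 in the checkpoint complex, differed by 2.43 ± 0.72, 3.37 ± 0.66 and 3.00 ± 0.63. Without WT nose replicate 3 the BUB1B nose value was 1.55 and was not called (adjusted p = 0.133), and without WT mouth replicate 1 the mouth value was 5.07.

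The genes of anaphase and ubiquitin transfer were UBE2C, CDC20 and PTTG1, and all 3 rose at every label. UBE2C is the ubiquitin-conjugating enzyme of the anaphase-promoting complex. In nose libraries, UBE2C had 30.6, 34.7 and 27 CPM in DIK, against 0, 0.73 and 0.427 CPM in WT. In mouth libraries, UBE2C had 43.7, 30.4 and 38.7 CPM in DIK, against 0.161, 0.871 and 0.787 CPM in WT. In scrotum libraries, UBE2C had 54.5, 69.4 and 73.1 CPM in DIK, against 0.839, 6.11 and 1 CPM in WT. The lowest of the 9 tumour values, 27 CPM, stood against a highest WT value of 6.11 CPM, in WT scrotum replicate 2. Differences of UBE2C were 5.84 ± 0.68, 5.94 ± 0.57 and 4.47 ± 0.49, with adjusted p-values of 3.22e-06, 5.34e-07 and 1.24e-06 by edgeR. CDC20 activates the anaphase-promoting complex once the checkpoint is satisfied. In nose libraries, CDC20 had 17.2, 12.7 and 16.7 CPM in DIK, against 0, 1.1 and 0.427 CPM in WT. In mouth libraries, CDC20 had 18.7, 13.8 and 24.3 CPM in DIK, against 1.13, 1.39 and 0 CPM in WT. In scrotum libraries, CDC20 had 26.5, 28.6 and 24.4 CPM in DIK, against 4.62, 6.11 and 0.502 CPM in WT. All tumour values again lay above all WT values, and the differences were 4.54 ± 0.77, 4.31 ± 0.61 and 2.81 ± 0.54. PTTG1, the securin that restrains the cleavage of cohesin, differed by 4.36 ± 0.78 at the nose label and by 3.16 ± 0.58 at the scrotum label. The PTTG1 scrotum value was 5.44 without WT scrotum replicate 2 and 2.73 without WT scrotum replicate 3. The mouth tumours held 125 counts of PTTG1, against 3 over the WT mouth libraries, a ratio of 59.6 (exact 95% counting interval 19.9 to 293).

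AURKB and BIRC5 belong to the chromosomal passenger complex, which corrects wrong attachments and later guides cytokinesis. Both rose at all 3 labels. In nose libraries, BIRC5 had 8.01, 9.42 and 7.64 CPM in DIK, against 0, 1.46 and 1.5 CPM in WT. In mouth libraries, BIRC5 had 9.81, 8.75 and 14.1 CPM in DIK, against 2.41, 0.697 and 0.525 CPM in WT. In scrotum libraries, BIRC5 had 12.9, 19.7 and 20 CPM in DIK, against 0.839, 2.24 and 1.5 CPM in WT. BIRC5, also called survivin, had WT values of up to 2.41 CPM and tumour values of 7.64 CPM and more, and it differed by 2.60 ± 0.53, 3.05 ± 0.45 and 3.38 ± 0.46. In nose libraries, AURKB had 10.4, 11 and 8.19 CPM in DIK, against 1.92, 1.46 and 1.5 CPM in WT. In mouth libraries, AURKB had 6.01, 3.89 and 9.86 CPM in DIK, against 1.45, 1.74 and 0.262 CPM in WT. In scrotum libraries, AURKB had 14.5, 12.9 and 6.88 CPM in DIK, against 0.42, 3.87 and 1.25 CPM in WT. The closest pair of AURKB values was 3.89 CPM in DIK mouth replicate 2 and 3.87 CPM in WT scrotum replicate 2. Differences of AURKB, the kinase of the complex, were 2.67 ± 0.62, 2.39 ± 0.55 and 2.49 ± 0.54, and its adjusted p-values from edgeR were 0.00213, 0.00181 and 0.00108.

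**Figure D2:**
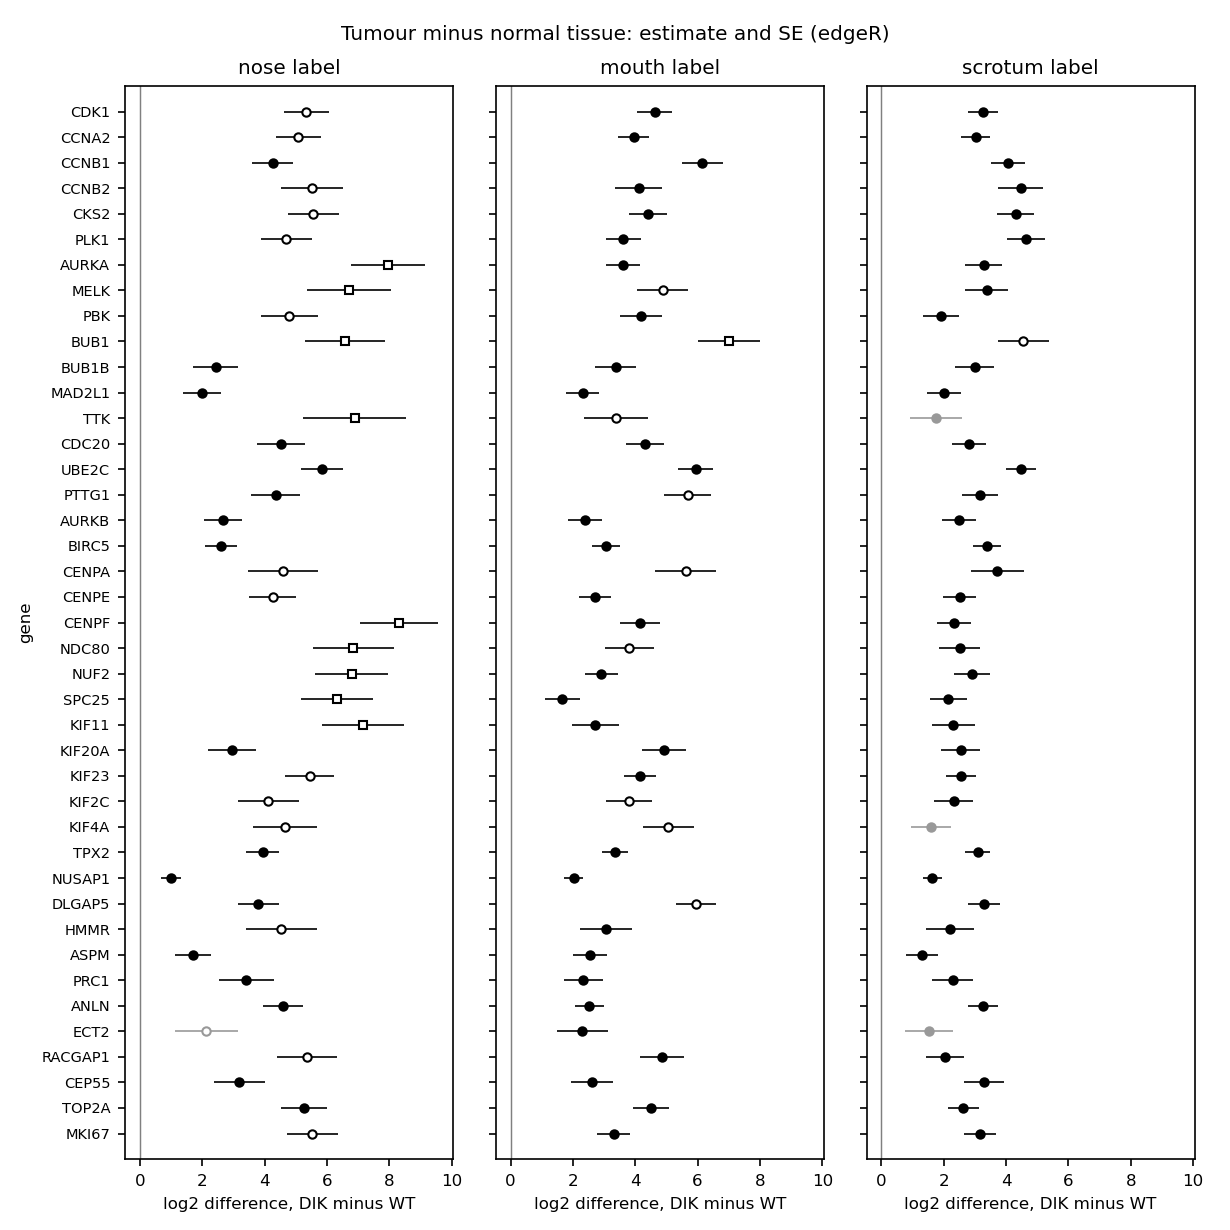
Log2 difference, DIK minus WT, with its SE, for the 41 tested mitosis genes at the nose, mouth and scrotum labels. Black markers were called by edgeR and grey ones were not; open circles have 1 to 3 counts over the 3 WT libraries and open squares have 0, so that their estimate depends on the prior count and is no bound. All markers lie right of 0, and most open markers are in the nose panel.

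The centromere and kinetochore genes numbered 6, and all 6 rose at every label. CENPF, a large protein of the outer kinetochore, was at 0 counts in all 3 WT nose libraries. In nose libraries, CENPF had 10.4, 13.5 and 8.74 CPM in DIK, against 0 counts in all 3 libraries of WT, at least 28.8-fold higher. In mouth libraries, CENPF had 12.7, 11.4 and 14.4 CPM in DIK, against 0.322, 1.39 and 0.262 CPM in WT. In scrotum libraries, CENPF had 15.9, 24 and 12.5 CPM in DIK, against 1.26, 7.13 and 1.25 CPM in WT. WT scrotum replicate 2 was the highest WT library and came closest to the tumours. CENPF differed by 4.15 ± 0.63 at the mouth label and by 2.33 ± 0.54 at the scrotum label. The scrotum value was 3.78 without WT scrotum replicate 2 and 1.92 without WT scrotum replicate 3. CENPE is a motor of the kinetochore. In nose libraries, CENPE had 3.4, 8.89 and 4.1 CPM in DIK, against 0, 0.365 and 0.214 CPM in WT. In mouth libraries, CENPE had 9.18, 2.92 and 9.86 CPM in DIK, against 1.13, 1.05 and 1.05 CPM in WT. In scrotum libraries, CENPE had 9.5, 6.44 and 6.25 CPM in DIK, against 0.839, 1.83 and 1 CPM in WT. Its 3 WT mouth values were close together near 1 CPM, and the groups did not overlap at any label. The differences were 2.71 ± 0.51 at the mouth label and 2.51 ± 0.53 at the scrotum label, and the nose ratio rested on 2 WT counts.

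NUF2, SPC25 and NDC80 are subunits of the complex that ties the kinetochore to microtubules, and all 3 were at 0 counts in WT nose. In nose libraries, NUF2 had 1.94, 4.58 and 4.91 CPM in DIK, against 0 counts in all 3 libraries of WT, at least 9.9-fold higher. In mouth libraries, NUF2 had 5.06, 9.72 and 8 CPM in DIK, against 1.13, 1.39 and 0.262 CPM in WT. In scrotum libraries, NUF2 had 6.71, 5.01 and 10 CPM in DIK, against 1.26, 0.611 and 1 CPM in WT. The tumour values were all above the WT values, with differences of 2.92 ± 0.52 at the mouth label and 2.91 ± 0.57 at the scrotum label. In nose libraries, SPC25 had 1.94, 4.04 and 2.18 CPM in DIK, against 0 counts in all 3 libraries of WT, at least 7.14-fold higher. In mouth libraries, SPC25 had 3.16, 2.67 and 2.67 CPM in DIK, against 1.13, 0.871 and 0.525 CPM in WT. In scrotum libraries, SPC25 had 3.07, 3.22 and 5.63 CPM in DIK, against 1.68, 0.408 and 0.752 CPM in WT. SPC25 had the smallest mouth difference of the members, 1.66 ± 0.55, and that call was lost without WT mouth replicate 2 or 3, without DIK mouth replicate 1, and with no filter, with adjusted p-values of 0.0508 to 0.0681. NDC80 was at least 10.4-fold higher at the nose label and differed by 2.51 ± 0.67 at the scrotum label. The NDC80 scrotum value was 3.82 without WT scrotum replicate 2 and 1.915 without WT scrotum replicate 3. CENPA, the histone that marks the centromere, had 47, 50 and 41 counts in DIK nose, mouth and scrotum, against 1, 1 and 4 counts in WT. Its nose call was lost without WT nose replicate 3 (adjusted p = 0.0516), and the estimate of 4.59 ± 1.13 was 6.98 without WT nose replicate 1, which held the 1 WT count.

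All 5 kinesins, the motors that move along microtubules, rose at the nose and mouth labels, and 4 of 5 rose at the scrotum label. KIF11 pushes the spindle poles apart. In nose libraries, KIF11 had 4.61, 4.58 and 5.46 CPM in DIK, against 0 counts in all 3 libraries of WT, at least 12.9-fold higher. In mouth libraries, KIF11 had 1.9, 2.19 and 4.26 CPM in DIK, against 0.322, 0 and 1.05 CPM in WT. In scrotum libraries, KIF11 had 2.79, 6.08 and 5 CPM in DIK, against 1.26, 1.22 and 0.251 CPM in WT. The tumour libraries lay above the WT libraries at each label, and KIF11 differed by 2.71 ± 0.75 at the mouth label and 2.31 ± 0.70 at the scrotum label, where the call was lost without WT scrotum replicate 3 (adjusted p = 0.0594) or DIK scrotum replicate 2 (adjusted p = 0.0652). KIF2C shortens microtubules at the centromere. In nose libraries, KIF2C had 1.94, 4.85 and 1.37 CPM in DIK, against 0, 0 and 0.214 CPM in WT, a ratio of 21.4 (exact 95% counting interval 3.57 to 873). In mouth libraries, KIF2C had 1.58, 3.64 and 3.73 CPM in DIK, against 0.161, 0.349 and 0 CPM in WT, a ratio of 16.2 (exact 95% counting interval 5.09 to 82.4). In scrotum libraries, KIF2C had 5.59, 3.93 and 3.75 CPM in DIK, against 0.839, 1.22 and 0.502 CPM in WT. DIK nose replicate 3 was the lowest tumour library at 1.37 CPM and still above the WT range, and the scrotum difference was 2.32 ± 0.63.

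KIF4A, a motor bound to chromosome arms and the midzone of the spindle, rose at the nose and mouth labels but was not called at the scrotum label. In nose libraries, KIF4A had 5.34, 2.96 and 3.55 CPM in DIK, against 0, 0 and 0.214 CPM in WT, a ratio of 31.8 (exact 95% counting interval 5.42 to 1280). In mouth libraries, KIF4A had 3.48, 4.62 and 7.73 CPM in DIK, against 0.161, 0.174 and 0 CPM in WT, a ratio of 42.2 (exact 95% counting interval 11.2 to 356). In scrotum libraries, KIF4A had 5.03, 2.86 and 5 CPM in DIK, against 0.42, 3.06 and 0.251 CPM in WT. WT scrotum replicate 2 lay above DIK scrotum replicate 2, while WT scrotum replicates 1 and 3 were below 1 CPM. KIF4A differed by 1.59 ± 0.65 at the scrotum label (adjusted p = 0.0538), and by 3.61 with a call (adjusted p = 0.000737) without WT scrotum replicate 2. Without WT scrotum replicate 3 it differed by 1.09. KIF20A and KIF23, motors of the spindle midzone that serve cytokinesis, differed by 2.96 ± 0.76 and 5.45 ± 0.78 at the nose label, 4.91 ± 0.71 and 4.14 ± 0.50 at the mouth label, and 2.55 ± 0.63 and 2.54 ± 0.48 at the scrotum label. The KIF20A nose value was 7.34 without WT nose replicate 2, which held all 5 WT nose counts, and 1.89 without WT nose replicate 3.

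The spindle proteins TPX2, NUSAP1, DLGAP5, HMMR and ASPM all rose at every label in the filtered fit. DLGAP5 stabilises the microtubule fibres that hold kinetochores. In nose libraries, DLGAP5 had 8.98, 9.42 and 10.1 CPM in DIK, against 0, 1.46 and 0.214 CPM in WT. In mouth libraries, DLGAP5 had 12.7, 13.4 and 15.2 CPM in DIK, against 0, 0.523 and 0 CPM in WT, a ratio of 72.4 (exact 95% counting interval 24.3 to 355). In scrotum libraries, DLGAP5 had 19.8, 21.1 and 9.38 CPM in DIK, against 0.839, 2.45 and 1.5 CPM in WT. All tumour values exceeded all WT values, and the differences were 3.80 ± 0.66 at the nose label and 3.30 ± 0.51 at the scrotum label. NUSAP1, which binds and bundles spindle microtubules, was counted in all 9 WT libraries. In nose libraries, NUSAP1 had 26, 33.1 and 27.3 CPM in DIK, against 11.5, 18.3 and 12 CPM in WT. In mouth libraries, NUSAP1 had 26.3, 20.4 and 29.9 CPM in DIK, against 6.28, 6.45 and 6.03 CPM in WT. In scrotum libraries, NUSAP1 had 23.2, 46.8 and 30.6 CPM in DIK, against 6.71, 14.9 and 10 CPM in WT. NUSAP1 still separated the groups at each label, with differences of 1.01 ± 0.32, 2.02 ± 0.32 and 1.64 ± 0.31, the smallest of all members at the nose label. The nose call was lost without WT nose replicate 3 (0.87, adjusted p = 0.0873) or DIK nose replicate 2 (0.91, adjusted p = 0.0546).

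TPX2, which activates AURKA on the spindle, differed by 3.94 ± 0.52, 3.35 ± 0.42 and 3.09 ± 0.40 with the smallest adjusted p-values of the 5 spindle genes at the nose and scrotum labels, 1.39e-05 and 7.31e-06. HMMR, a protein of spindle microtubules, differed by 3.06 ± 0.84 at the mouth label and 2.21 ± 0.78 at the scrotum label. The HMMR scrotum value was 5.30 without WT scrotum replicate 2, and its call was lost without WT scrotum replicate 1 (adjusted p = 0.0781), WT scrotum replicate 3 (0.099) or DIK scrotum replicate 3 (0.107). ASPM, a protein of the spindle poles, differed by 1.71 ± 0.58, 2.55 ± 0.53 and 1.30 ± 0.51. ASPM was the third member that would pass the filter in WT libraries alone. Its scrotum call (adjusted p = 0.0441) was lost when any of 13 of the 18 libraries was left out and its nose call when 1 of 4 nose libraries was (DIK replicates 1 and 2, WT replicates 2 and 3).

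Of the 5 cytokinesis genes, 4 rose at the nose label, 5 at the mouth label and 4 at the scrotum label. RACGAP1 forms the centralspindlin complex with KIF23. In nose libraries, RACGAP1 had 3.88, 8.89 and 6.55 CPM in DIK, against 0, 0 and 0.214 CPM in WT, a ratio of 50.4 (exact 95% counting interval 8.77 to 2020). In mouth libraries, RACGAP1 had 9.81, 7.53 and 7.2 CPM in DIK, against 0.161, 0.523 and 0 CPM in WT. In scrotum libraries, RACGAP1 had 5.59, 5.36 and 5.63 CPM in DIK, against 0.42, 2.85 and 0.251 CPM in WT. The 3 DIK scrotum values were close together and above the WT values, of which replicate 2 was the highest. Its differences were 4.84 ± 0.71 at the mouth label and 2.03 ± 0.62 at the scrotum label, where it was 3.98 without WT scrotum replicate 2 and lost its call without WT scrotum replicate 3 (adjusted p = 0.054). ECT2, which activates RhoA at the cleavage furrow, was the member least separated between tumour and normal tissue. In nose libraries, ECT2 had 1.7, 3.23 and 0.546 CPM in DIK, against 1.92, 0 and 0.427 CPM in WT. In mouth libraries, ECT2 had 1.9, 1.94 and 2.93 CPM in DIK, against 0.483, 0.697 and 0 CPM in WT. In scrotum libraries, ECT2 had 3.63, 3.22 and 1.88 CPM in DIK, against 2.1, 1.02 and 0.251 CPM in WT. The groups overlapped at the nose and scrotum labels, where the differences of 2.13 ± 1.01 (adjusted p = 0.0996) and 1.53 ± 0.77 (adjusted p = 0.117) missed the threshold. WT nose replicate 1 contributed its 1.92 CPM through a single count in the shallowest library. The mouth difference of 2.30 ± 0.81 was called (adjusted p = 0.0256), and the call was lost without WT mouth replicate 1 or 3 or DIK mouth replicate 3, with adjusted p-values of 0.0543 to 0.0849. PRC1, ANLN and CEP55 bundle midzone microtubules, scaffold the contractile ring and act in the final cut. At the scrotum label these genes differed by 2.29 ± 0.66, 3.26 ± 0.48 and 3.29 ± 0.64. The PRC1 value was 4.49 without WT scrotum replicate 2 and 1.87 without WT scrotum replicate 3.

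TOP2A, the enzyme that untangles sister DNA, and MKI67, the Ki-67 protein that coats mitotic chromosomes, both rose at every label. In nose libraries, TOP2A had 17.5, 25.6 and 16.7 CPM in DIK, against 0, 0 and 0.855 CPM in WT. In mouth libraries, TOP2A had 19.3, 15.5 and 25.1 CPM in DIK, against 0.483, 0.697 and 1.57 CPM in WT. In scrotum libraries, TOP2A had 25.4, 24.7 and 20.6 CPM in DIK, against 2.52, 7.34 and 1 CPM in WT. The highest of the 9 tumour values of TOP2A was 1.65 times the lowest, and WT scrotum replicate 2 was the highest WT library. TOP2A differed by 5.27 ± 0.73 (9.16 without WT nose replicate 3, which held all 4 WT counts), 4.50 ± 0.58 and 2.63 ± 0.50. In nose libraries, MKI67 had 7.28, 6.73 and 8.46 CPM in DIK, against 0, 0.365 and 0 CPM in WT, a ratio of 59.4 (exact 95% counting interval 10.4 to 2370). In mouth libraries, MKI67 had 6.64, 8.26 and 6.4 CPM in DIK, against 0.966, 0.523 and 0.525 CPM in WT. In scrotum libraries, MKI67 had 10.9, 8.22 and 11.3 CPM in DIK, against 0.42, 2.24 and 0.251 CPM in WT. Its tumour values spanned a factor of 1.76 and did not overlap the WT values. MKI67 differed by 3.30 ± 0.52 at the mouth label and 3.17 ± 0.52 at the scrotum label. The MKI67 scrotum value was 4.85 without WT scrotum replicate 2 and 2.69 without WT scrotum replicate 3.

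FOXM1, the transcription factor that switches on many genes of this set before mitosis, failed the filter. In nose libraries, FOXM1 had 1.7, 2.69 and 2.18 CPM in DIK, against 0 counts in all 3 libraries of WT, at least 5.76-fold higher. In mouth libraries, FOXM1 had 2.21, 3.64 and 1.87 CPM in DIK, against 0.161, 0 and 0 CPM in WT, a ratio of 41.5 (exact 95% counting interval 6.87 to 1690). In scrotum libraries, FOXM1 had 1.68, 2.86 and 5 CPM in DIK, against 0.42, 0 and 0 CPM in WT, a ratio of 31.1 (exact 95% counting interval 5.03 to 1280). FOXM1 was thus counted in every tumour library and, with 1 count each, in WT mouth replicate 1 and WT scrotum replicate 1. In the fit without a filter it was called at all 3 labels, with adjusted p-values of 0.00239, 0.000317 and 0.001 from edgeR.

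**Figure D3:**
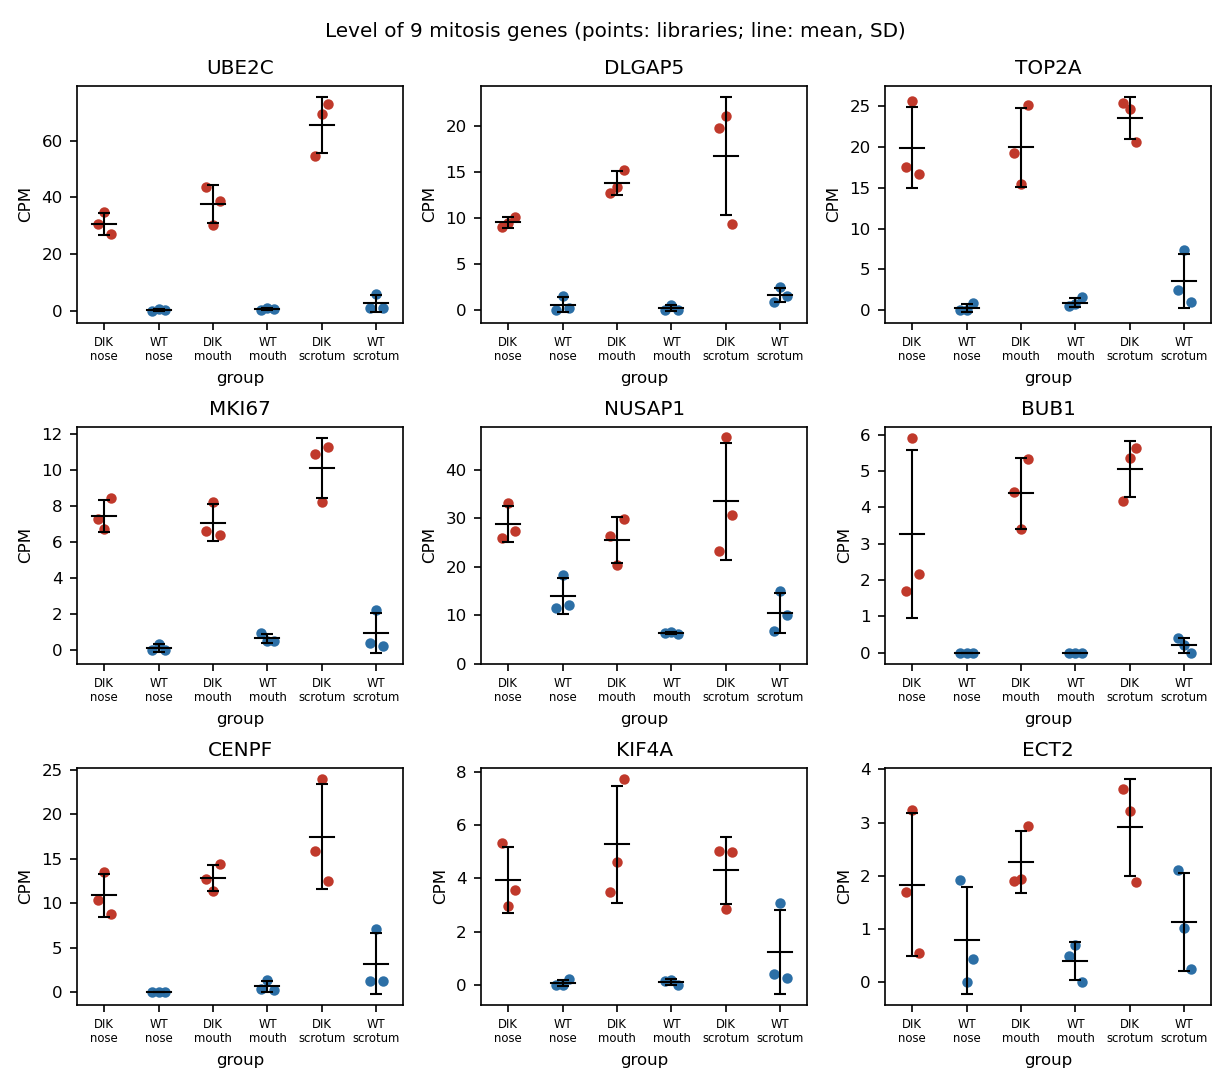
Level in CPM of 9 mitosis genes in the 6 groups (DIK left of WT at each label), with 1 point per library, a line at the mean and a bar for the SD of 3 libraries. For UBE2C, DLGAP5, TOP2A, MKI67, NUSAP1, BUB1 and CENPF the DIK points lie above the WT points at every label; for KIF4A a WT scrotum point reaches the DIK scrotum points, and for ECT2 the points overlap at the nose and scrotum labels.

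The members varied moderately among the tumours. The median over the 42 genes of the highest over the lowest of the 9 DIK libraries was 2.99, with 22 genes under 3 and 5 genes over 5 (CCNB2, ECT2, NUF2, MELK and CEP55). DIK nose replicate 2, the library that lies apart from its group, was the highest nose tumour for 30 of 42 genes, and DIK mouth replicate 3 the highest mouth tumour for 25. Among the WT scrotum libraries, WT scrotum replicate 2 was the highest for 31 of 42 genes and WT scrotum replicate 3 the lowest for 26.

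Between tumours of different labels, 0 of 41 tested members were called in any of the 3 comparisons, against 1.54% of tested genes for mouth minus nose, 5.84% for scrotum minus nose and 2.88% for scrotum minus mouth. For an unadjusted p, DESeq2 and limma-voom, the shares over all tested genes were not counted. At an unadjusted p under 0.05 the counts were 1, 4 and 3 genes. DESeq2 called 0 in each, and limma-voom called 1, 9 and 6, all higher in the first-named label. Estimates were nonetheless mostly positive, for 29, 38 and 34 of 41 genes, with medians of 0.24, 0.48 and 0.46 against -0.01, -0.05 and -0.01 over all tested genes. Mean levels ran in the order scrotum, mouth, nose from high to low for 22 of 42 genes. Scrotum minus nose differences were 1.12 ± 0.45 for PLK1, 1.11 ± 0.54 for CEP55, 1.09 ± 0.41 for UBE2C and 1.05 ± 0.39 for BIRC5, with adjusted p-values of 0.124 to 0.26. TOP2A and MKI67 differed between the same tumours by 0.25 ± 0.44 and 0.43 ± 0.42. These 3 comparisons share libraries and are not independent of each other.

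Between normal tissues of different labels, most members were not called, and many of the calls depended on 1 library. For WT mouth minus WT nose, 3 of 41 genes were higher and 1 was lower, against 19.8% of tested genes in either direction. The higher ones were AURKA, NUF2 and SPC25, each at 0 counts in WT nose, with adjusted p-values of 0.0336, 0.0182 and 0.0175, and none of the 3 kept its call without WT nose replicate 3. The lower one was NUSAP1, by -1.19 ± 0.33 (adjusted p = 0.0154), which lost its call without WT nose replicate 2. For WT scrotum minus WT nose, CENPF, TOP2A and CCNA2 were higher, against 6.05% of tested genes. The CENPF call was lost without WT nose replicate 3 (adjusted p = 0.0852). TOP2A differed by 2.89 ± 0.81 and CCNA2 by 2.88 ± 0.84. The TOP2A value was 1.67 and not called (adjusted p = 0.208) without WT scrotum replicate 2 and 6.78 without WT nose replicate 3, and CCNA2 lost its call when any of 15 of the 18 libraries was left out.

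For WT scrotum minus WT mouth, 10 of 41 members were higher, against 23% of tested genes in either direction and 13.7% higher. They were KIF4A, DLGAP5, PTTG1, CCNB1, PBK, CENPF, UBE2C, CDK1, TOP2A and CDC20, with differences of 1.99 ± 0.66 for CDC20 to 3.16 ± 0.93 for KIF4A. Without WT scrotum replicate 2, none of the 10 was called. The UBE2C difference of 2.27 ± 0.64 became 0.68, the CCNB1 difference of 2.46 ± 0.78 became 0.54 and the PTTG1 difference of 2.88 ± 0.90 became 0.61. That library also held the most basal keratinocyte RNA of the WT libraries, 13800 CPM against at most 1760 CPM in the other 8, and the part of this in its mitosis genes was not tested.

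The tumour difference itself was compared between labels with interaction terms. For mouth minus nose, 0 of 41 members were called, against 8.6% of tested genes, with 7 at an unadjusted p under 0.05, 0 by DESeq2 and 1 by limma-voom. For scrotum minus nose, CENPF alone was called, against 7.65%, with a smaller tumour difference at the scrotum label (-5.98 ± 1.68, adjusted p = 0.0403). The nose estimate rests on a WT group at 0 counts. The CENPF call was lost when any of 13 of the 18 libraries was left out, with adjusted p-values of 0.0525 to 0.145, among them WT scrotum replicate 2 (-4.51, adjusted p = 0.0653) and WT nose replicate 3 (-5.96, adjusted p = 0.145). At an unadjusted p under 0.05 there were 15 members, with 1 call by DESeq2 and 0 by limma-voom. For scrotum minus mouth, KIF4A alone was called, against 13.1%, with -3.47 ± 1.10 (adjusted p = 0.0434). This call too was lost when any of 13 of the 18 libraries was left out, with adjusted p-values of 0.0529 to 0.542, and the value was -1.45 (adjusted p = 0.542) without WT scrotum replicate 2. At an unadjusted p under 0.05 there were 10 members, with 2 calls by DESeq2 and 0 by limma-voom. Estimates were negative for 27, 36 and 34 of 41 members in the 3 comparisons, with medians of -0.62, -1.72 and -0.92, against -0.12, -0.25 and -0.05 over all tested genes. At the nose label 9 of the 41 had 0 WT counts, so their estimates depend on the prior count. The scrotum ratio of summed levels was 7.84, but 12 without WT scrotum replicate 2 and 6.34 without WT scrotum replicate 3. These medians were not computed with a library left out. For an unadjusted p, DESeq2 and limma-voom, the shares over all tested genes were not counted here either. The 3 comparisons share libraries.

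Other genes of the pathway were counted from lists that overlap with none of the 42. The other mitosis genes with cell-cycle-dependent transcription comprised 71 genes in the table, of which 55 were tested. Here and in the lists below, a gene could pass the filter through its level in DIK libraries alone, and how many did was not counted. The counts therefore describe the genes that passed and are not support by themselves. Of the 55 tested, 34 rose at the nose label, 35 at the mouth label and 41 at the scrotum label, and 0 fell. Of all tested genes, 21.9%, 22.7% and 19.4% were called higher and 20.1%, 24.3% and 24% lower at these labels. The medians of the list were 2.44, 2.15 and 2.07, against 0.03, -0.04 and -0.09 over all tested genes. The nose count was 22 without WT nose replicate 3. KIFC1, a motor that works toward the spindle poles, averaged 14 ± 2.69 CPM in DIK nose and 0.864 ± 0.774 CPM in WT nose, with a log2 difference of 3.49 ± 0.52. SMC4, a subunit of condensin, averaged 36.4 ± 6.4 CPM in DIK nose and 6.11 ± 2.01 CPM in WT nose (2.44 ± 0.36). LMNB1, a lamin of the nuclear envelope, averaged 5.08 ± 1.51 CPM in DIK mouth and 0.199 ± 0.0551 CPM in WT mouth (4.51 ± 0.58). KPNA2, a nuclear import receptor, averaged 49.3 ± 5.02 CPM in DIK scrotum and 4.3 ± 3.68 CPM in WT scrotum (3.42 ± 0.48).

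The general mitotic machinery was listed as genes transcribed throughout the cell cycle. Of 48 such genes, 15 rose and 5 fell at the nose label, 9 rose and 7 fell at the mouth label, and 9 rose and 6 fell at the scrotum label, with medians of 0.23, 0.12 and 0.24. Of all tested genes, 21.9%, 22.7% and 19.4% were called higher and 20.1%, 24.3% and 24% lower at these labels, so the mouth and scrotum counts of risen genes are near the background. At the nose label 2 fell without WT nose replicate 2. At the mouth label 5 rose without DIK mouth replicate 1 and 4 fell without DIK mouth replicate 2, and at the scrotum label 6 rose without WT scrotum replicate 3 and 3 fell without WT scrotum replicate 1. CENPT, a kinetochore protein that recruits the Ndc80 complex, averaged 9.84 ± 2.52 CPM in DIK scrotum and 0.839 ± 0.588 CPM in WT scrotum (3.46 ± 0.66). CKAP5, which lengthens microtubules, averaged 18.4 ± 1.34 CPM in DIK nose and 5.28 ± 0.508 CPM in WT nose (1.82 ± 0.30). In the other direction NEK9, a kinase upstream of spindle assembly, averaged 18.2 ± 1.07 CPM in DIK mouth and 95.4 ± 23.8 CPM in WT mouth (-2.38 ± 0.30).

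The DREAM and MYBL2 complexes time the transcription of mitotic genes. The list of DREAM and MYBL2 transcription genes also holds E2F2, E2F8 and NFYA, which are not subunits of these complexes. Of its 16 tested genes, 7 rose and 3 fell at the nose label. At each of the mouth and scrotum labels 6 rose and 2 fell. Over all tested genes 21.9%, 22.7% and 19.4% were called higher and 20.1%, 24.3% and 24% lower, and the 3 of 16 that fell at the nose label are near that share. The nose count of risen genes was 3 without DIK nose replicate 2, and that of fallen genes was 1 without WT nose replicate 1, while at the mouth label 4 rose without WT mouth replicate 2 and 1 fell without WT mouth replicate 3. At the scrotum label 4 rose without DIK scrotum replicate 1 and 1 fell without WT scrotum replicate 3. MYBL2, the activating partner of this system, averaged 12.6 ± 2.57 CPM in DIK nose and 1.91 ± 1.75 CPM in WT nose (3.47 ± 0.53). The mouth means of MYBL2 were 16.3 ± 4.6 CPM in tumours and 1.49 ± 0.387 CPM in WT (3.41 ± 0.42), and the scrotum means were 22.2 ± 3.69 CPM in tumours and 1.84 ± 0.936 CPM in WT (3.52 ± 0.43). RBL2, the p130 protein that represses these genes in resting cells, averaged 5.34 ± 1.94 CPM in DIK mouth and 19.2 ± 5.65 CPM in WT mouth (-1.85 ± 0.38), and 4.4 ± 2.89 CPM in DIK scrotum and 12.4 ± 2.32 CPM in WT scrotum (-1.57 ± 0.41).

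Genes of DNA replication licensing act before mitosis, and their list also holds PCNA, which is not a licensing factor. Of 18 tested, 9 rose at the nose label, 12 at the mouth label and 13 at the scrotum label, and 0 fell, with medians of 1.57, 1.71 and 2.45. The shares over all tested genes were 21.9%, 22.7% and 19.4% higher and 20.1%, 24.3% and 24% lower. PCNA, the sliding clamp of the replication fork, averaged 31.4 ± 5.24 CPM in DIK nose and 5.98 ± 2.04 CPM in WT nose, 39.3 ± 5.28 CPM in DIK mouth and 7.29 ± 2.08 CPM in WT mouth, and 53 ± 4.38 CPM in DIK scrotum and 8.33 ± 2.72 CPM in WT scrotum. Its log2 differences were 2.24 ± 0.30, 2.41 ± 0.28 and 2.64 ± 0.29. MCM4, a subunit of the replicative helicase, averaged 25.5 ± 3.95 CPM in DIK scrotum and 3.26 ± 1.69 CPM in WT scrotum (2.91 ± 0.34).

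Markers of basal keratinocytes, the cell type that divides in squamous epithelium, moved with the mitosis genes. Of 14 listed markers 13 were in the table and none was at 0 counts in any group. Of the 13, 8 were called higher at the nose label, 11 at the mouth label and 8 at the scrotum label. At each of the mouth and scrotum labels 1 was called lower. Over all tested genes the shares were 21.9%, 22.7% and 19.4% higher and 20.1%, 24.3% and 24% lower at the nose, mouth and scrotum labels. The 13 markers summed to 24100 to 31900 CPM in DIK nose and 740 to 1360 CPM in WT nose. In mouth libraries the sum was 43600 to 52600 CPM in DIK and 293 to 1760 CPM in WT, and in scrotum libraries 45200 to 65500 CPM in DIK and 221 to 13800 CPM in WT. Per 1000 CPM of these markers, the 42 mitosis genes had 6.72 to 18.3 CPM in DIK libraries and 8.68 to 169 CPM in WT libraries, with medians of 10.1 and 45.7 CPM. By this measure 7 of 9 WT libraries lay above the highest DIK library, and the direction was the reverse of that of the mitosis genes alone. The other 2 were WT scrotum replicate 2, with 8.68, and WT nose replicate 1, with 15.5. How far the makeup of the tissue enters the differences of the mitosis genes was not tested.

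**Figure D4:**
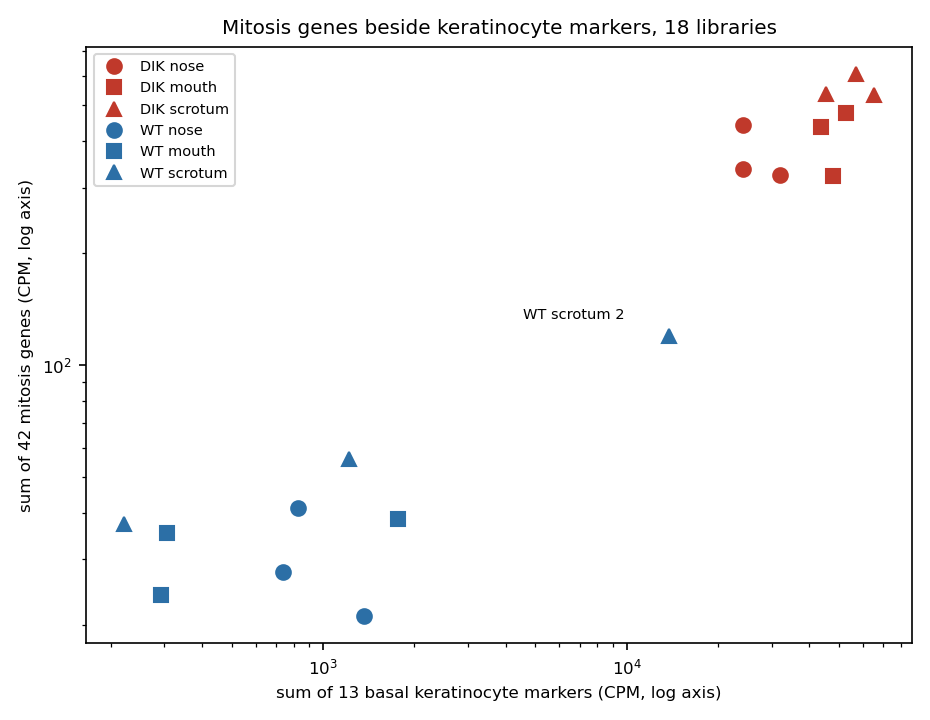
Summed level of the 42 mitosis genes against that of 13 basal keratinocyte markers in each of the 18 libraries, both in CPM on log axes, with colour for genotype and shape for label. The 9 DIK libraries lie at the upper right, 8 WT libraries at the lower left, and WT scrotum replicate 2, with 120 and 13800 CPM, lies between them.

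Leukocytes are another cell type that divides and that the tissue could hold. Their markers had few counts, so that only 5 of 15 leukocyte markers were tested, and the sum of all 15 was 36.2 to 179 CPM in DIK and 32.6 to 79.3 CPM in WT. Its mean was 54.1 ± 4.05 CPM in DIK nose and 44.6 ± 14.9 CPM in WT nose (SD, n = 3). The mouth means were 37.3 ± 1.1 CPM in DIK and 63 ± 5.73 CPM in WT. The scrotum means were 118 ± 55.9 CPM in DIK and 58.8 ± 18.4 CPM in WT. The B cell marker MS4A1 was at 0 counts in all 3 DIK groups and CD79A in DIK mouth, WT nose and WT scrotum. Of the 5 tested, 1 was higher and 0 lower at the nose label, and 0 higher and 2 lower at the mouth label. At the scrotum label 1 was higher and 2 were lower. Medians of the 5 were 0.39, -0.5 and -0.63. Of all tested genes, 21.9%, 22.7% and 19.4% were called higher and 20.1%, 24.3% and 24% lower at these labels. The 5 leukocyte markers are too few to set apart from these shares. Fibroblast markers were lower in the tumours, with 7 of 8 called lower at each label, and the 15 skeletal muscle markers in the table were all called lower at each label. Gland markers summed to 8.49 ± 5.65 CPM in DIK nose, against 75200 ± 20600 CPM in WT nose. The part of these tissue differences in the mitosis genes was not tested.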

How the data were processed

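RNA-seq of polyadenylated RNA was carried out on 18 pig tissue samples, per the labels. The authors deposited whole-number read counts per gene, which the submitters' processing notes tie to fastp, HISAT2 2.1.0 and HTSeq 0.11.2. Neither the labels nor the table name a build, annotation, strand setting or rule for multi-mapped reads, so overlapping or near-identical genes could share reads. Groups follow the labels, with 3 libraries each. Totals of 418665 to 5041470 counts make 3 counts worth 0.483 to 5.76 CPM, and intervals and bounds cover counting error only.

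Counts were scaled by TMM, filtered with filterByExpr (minimum count 10) and fitted with the robust quasi-likelihood test of edgeR 4.0.16 in R 4.3.3 over all 6 groups, after a test on simulated data. P-values were adjusted by Benjamini-Hochberg over 12895 genes, with a threshold of 0.05. Interaction terms compared tumour differences between labels. Alternatives were median-of-ratios, upper-quartile and library-size scaling, no filter, 10 CPM in 3 libraries, DESeq2 1.42.0, limma-voom (limma 3.58.1), only the groups compared, a replicate block, a threshold of 0.01, a fold change of at least 2 and each library left out.

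The mitosis genes and all gene lists were chosen with earlier results of these data known. Library values were given for the members with the highest and lowest mean difference in each role class, members not called at a label, and members called in an interaction or between labels of 1 genotype, up to 5 per comparison. Of the other lists, up to 4 genes per list and label were named by adjusted p. Smooth muscle markers were called lower for 6, 8 and 6 of 8 genes at the nose, mouth and scrotum labels. Endothelial markers were called lower for 2, 4 and 3 of 6 genes. Over all tested genes 20.1%, 24.3% and 24% were called lower at these labels. Pig genes were matched by symbol, and all 42 members had a RefSeq symbol. No genome or sequence was used.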

Additional observations from a re-analysis of the deposited data

Results flagged for a closer look

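The tumour difference of CENPF was smaller at the scrotum label than at the nose label by -5.98 ± 1.68 (interaction term, edgeR adjusted p = 0.0403). The value was -4.35 by DESeq2 (adjusted p = 0.0286) and -1.91 by limma-voom (adjusted p = 0.201), and the WT nose group had 0 counts of CENPF, so the size depends on the prior count. The call was lost when any of 13 of the 18 libraries was left out.

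The tumour difference of KIF4A was smaller at the scrotum label than at the mouth label by -3.47 ± 1.10 (adjusted p = 0.0434). It was -3.71 by DESeq2 (adjusted p = 0.0472) and -1.75 by limma-voom (adjusted p = 0.276), and it was -1.45 (adjusted p = 0.542) without WT scrotum replicate 2. Leaving out any of 13 of the 18 libraries ended this call, as did a replicate block (adjusted p = 0.0671). The part of that library's keratinocyte content in this value was not tested.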

How the results depend on the processing

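All DIK libraries come from 1 animal so animal and genotype cannot be told apart. WT nose replicate 1 has too few counts to show a level of a few CPM. No estimate of a member's tumour difference changed sign under any alternative run. Of the tumour counts, those with each library left out ran from 36 to 41 at the nose label, 40 to 42 at the mouth label and 34 to 40 at the scrotum label. With at least 10 CPM in 3 libraries only 18 members were tested, and all 18 were called at each label. A gene could pass this filter through its level in DIK libraries alone, so that count is not support by itself. The share of all genes called under this filter was not counted. The count called at all 3 labels was 38. It was 24 with only the groups compared and 18 with the 10 CPM filter, and both of these settings test fewer members. With only the groups compared, the calls lost among tested members were those of HMMR, ASPM and RACGAP1 at the scrotum label. The count was 29 at a threshold of 0.01 and 34 to 40 under the others.

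Between tumours, limma-voom called 1 member for mouth minus nose, 9 for scrotum minus nose and 6 for scrotum minus mouth. With only the groups compared, 4 were called for scrotum minus nose and 4 for scrotum minus mouth. Leaving out each library gave 0, 0 to 1 and 0 calls in these 3 comparisons, and leaving out both WT nose replicate 1 and WT scrotum replicate 2, an alternative chosen after seeing the data, gave 1 for scrotum minus nose.

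For WT mouth minus WT nose (4 calls), the 10 CPM filter, DESeq2 and limma-voom gave 2 each, only the groups compared gave 1, a threshold of 0.01 gave 0, and leaving out each library gave 0 to 5. For WT scrotum minus WT nose (3 calls), library-size scaling gave 1, while limma-voom, only the groups compared and the threshold of 0.01 gave 0, and leaving out each library gave 0 to 12. For WT scrotum minus WT mouth (10 calls), library-size scaling gave 4, limma-voom, only the groups compared, both libraries left out and the threshold of 0.01 gave 0, and leaving out each library gave 0 to 13.

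For the interaction mouth minus nose, library-size scaling and limma-voom gave 1 each, and leaving out each library 0 to 1. For scrotum minus nose (1 call), limma-voom, only the groups compared, both libraries left out and the threshold of 0.01 gave 0, and leaving out each library 0 to 5. For scrotum minus mouth (1 call), DESeq2 gave 2, while library-size scaling, no filter, the 10 CPM filter, limma-voom, only the groups compared, both libraries left out and the threshold of 0.01 gave 0, and leaving out each library 0 to 5. The cause of these changes was not tested. For the comparisons between labels, the shares of all genes called under each alternative were not counted. Library-size scaling set the median difference of all genes at -0.01, -0.29 and -0.21 at the nose, mouth and scrotum labels, against 0.03, -0.04 and -0.09 with TMM.

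Samples with the same replicate number did not deviate together: the correlation was -0.0483 to 0.0886 over 9 pairs, 0 of them over 0.1, and 2 of 9 matched their own number best. They share only a number. With that number as a replicate block, 37 members were called at all 3 labels, 1 for WT scrotum minus WT nose and 0 for the interaction scrotum minus mouth.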
